A study of Mus musculus with 10 samples.

Results

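Exon and untranslated region (UTR) peaks are the sites of open chromatin that the deposited annotation places in an exon, a 5' UTR or a 3' UTR of a gene. In total, 2150 such peaks held a summed count of at least 100 over the 10 libraries, out of 61571 nuclear peaks in the annotation. They comprised 1077 of 1839 exon peaks, 633 of 835 5' UTR peaks and 440 of 837 3' UTR peaks. The data are ATAC-seq libraries, in which Tn5 transposase inserts adapters into open chromatin, from naive CD4+ T cells of mouse spleen and lymph node. The cells were sorted as CD3+CD4+CD25-CD44low/-CD62L+, and 60000 went into each library. Every mouse carried the genotype Satb1fl/fl x CD4-CreERT2wt/+, that is, floxed Satb1 alleles and a tamoxifen-dependent Cre recombinase driven by CD4. In the 5 libraries of the KO group the mice had been given tamoxifen, and in the 5 libraries of the WT group they had not. Tamoxifen exposure and loss of Satb1 cannot be told apart between these groups, and the controls carried the same floxed alleles and Cre. Nothing in the labels ties a library to an animal of its own, and p-values therefore cover the spread among these libraries only, which may be technical.

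SATB1 is a nuclear protein that binds AT-rich DNA and organises chromatin loops in thymocytes and T cells. Open chromatin is usually found at gene starts, where transcription factors displace nucleosomes, and at enhancers, most of which lie in introns or between genes. An open site inside an exon or a UTR can mark an alternative start of the gene, an enhancer that overlaps coding sequence, or a small gene, such as a tRNA gene, that is read from its own internal promoter.

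The authors' annotation calls a peak a promoter peak up to 3000 bp from the nearest gene start, and promoters take precedence. The peak closest to a start among the exon and UTR peaks was accordingly 3027 bp away. Some of these peaks nevertheless lay on a start of another transcript: 409 overlapped one of the RefSeq start windows, which run from 250 bases before to 50 bases after a start (assembly GRCm38.p6). Sequence could be read for these starts, and the stretches just upstream of 5 of them are shown, each inside a peak described below. Gm33332, Ifi47, Satb1 and Gm13572 starts lay in peaks that were higher in KO, and that of Lrif1 in a 5' UTR peak of high level that did not pass the test. Each is the 30 bases before the RefSeq start, 5′ to 3′ on the gene's strand. Capitals mark the core promoter motif TATAAA in Ifi47 and the RUNX factor motif TGTGGT in Gm33332.
Gm33332: tgttTGTGGTttgattcagtgtattgatgc
Ifi47: ggcatTATAAActgcattgctgccctgaac
Satb1: acctgatttgtggcgcaccctcagatctgc
Gm13572: aatcaggaagtagccattatcctttcgatt
Lrif1: ttcgccttggtaaccatatgtgacgtagct
In mm10 they are chr10:19718808-19718837 (minus strand), chr11:49076557-49076586 (plus), chr17:51826589-51826618 (minus), chr2:60037111-60037140 (plus) and chr3:106721652-106721681 (plus). Over the whole window of 300 bases the AT content was 54.7% for Gm33332, 60.7% for Ifi47, 44% for Satb1, 59.7% for Gm13572 and 52.3% for Lrif1. The median over all 32851 RefSeq windows was 47.3%. The Lrif1 window also held CCGGAAG, the core motif of ETS factors, at 161 and at 99 bases before the start, shown in capitals in the next stretches because Lrif1 had the highest mean level of KO and WT among exon and UTR peaks.
Lrif1 ETS, first: taagcctgacaCCGGAAGtatttcatttca
Lrif1 ETS, second: cctcctttgatCCGGAAGaagagacctcaa

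The letters of the start windows are given as a description, with no test. The 413 windows under 5' UTR peaks had a median AT content of 38.7% and a median of 18 CpG, and the 71 under exon peaks 46.7% and 9 CpG, against 47.3% and 7 over all windows. TATAAA, searched on both strands, was in 5.81% of the windows under 5' UTR peaks, in 22.5% of those under exon peaks and in 13.6% of all windows. TGTGGT was in 12.8%, 22.5% and 16.8% of them, and CCGGAAG in 11.6%, 7.04% and 8.86%. The motif of the interferon-stimulated response element was in 3.15%, 1.41% and 3.44%. A match describes letters and not a bound site.

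Total counts in nuclear peaks ran from 660107 in Sample_2270_KO to 2167685 in Sample_2272_KO. Levels are given as CPM, the count of a peak divided by the TMM-scaled total of its library and multiplied by 1000000. The 5 values of a group follow the running numbers of the libraries, from Sample_2268_KO to Sample_2272_KO and from Sample_2273_WT to Sample_2277_WT. Of 8 T cell marker genes, 8 had promoter peaks, with a summed 427 CPM in KO and 443 CPM in WT. Of 12 B cell markers, 1 had a promoter peak (Cr2), and Cd79a, Cd79b, Ms4a1 and Pax5 were not among the genes with one. Myeloid, NK, CD8 and erythroid or stromal marker promoters summed to 85.3, 82.9, 109 and 196 CPM in KO and to 88.7, 83.4, 117 and 193 CPM in WT, with no peak of them called. Over all peaks of the marker genes, the CD8 list summed to 514 to 537 CPM in KO and to 541 to 589 CPM in WT, lower in KO without overlap and with no peak called. The myeloid list had 371 to 432 and 368 to 402 CPM with no call, the NK list 428 to 469 and 420 to 450 CPM with 1 peak higher and 1 lower, and the erythroid and stromal list 303 to 339 and 314 to 340 CPM with 1 lower. The T cell list had 1167 to 1234 and 1124 to 1211 CPM with 4 peaks higher. Tested peaks numbered 25 for the CD8, 16 for the myeloid, 23 for the NK, 11 for the erythroid and stromal and 42 for the T cell list. Over all tested nuclear peaks 2.96 percent were called higher and 0.928 percent lower. The part of other cell types in the results was not tested. Counts of Sample_2268_KO and Sample_2270_KO, and of Sample_2273_WT and Sample_2276_WT, agreed within sampling noise (chi-square per degree of freedom 0.928 and 0.980). Sample_2270_KO, the shallowest library, was also within noise of libraries that differ from each other, so the libraries were kept apart. With both pairs merged, 43 exon and UTR peaks were called higher and 22 lower in place of 45 and 29.

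Accessibility in the classes differed by where the peak lay. In WT the median level was 31.2 CPM in 5' UTR peaks, 14.6 CPM in exon peaks and 13.5 CPM in 3' UTR peaks. The 5' UTR peaks were also wider, with a median of 367 bp against 253 and 223 bp. Per kb of peak, the medians were 82.5, 61.3 and 61.1 CPM, so that on this scale exon and 3' UTR peaks stood close together. In each of the 10 libraries the 5' UTR median was above the exon median, by 16.1 ± 0.745 CPM, and the exon median above the 3' UTR median, by 1.36 ± 0.413 CPM (SD; two-sided exact sign-flip permutation p = 0.00195 for each, adjusted 0.00195, the smallest that 10 libraries allow). Within the 5' UTR class, the 347 peaks over a RefSeq start had a median of 37.8 CPM and the other 286 one of 22.5 CPM. That difference was 15.5 ± 0.925 CPM and had the same sign in 10 of 10 libraries (exact sign-flip permutation p = 0.00195). The same peaks were measured in every library, so these p-values cover the spread between libraries and not the spread among peaks of a class.

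In the most accessible members no difference between the groups passed the test. Among the 5' UTR peaks with the highest level were those that belonged to Lrif1, a nuclear-receptor-binding factor found on the inactive X chromosome, and to Cdk19, a kinase of the Mediator complex. The Lrif1 peak (chr3:106721473-106722531) had 194, 172, 229, 185 and 188 CPM in KO against 202, 199, 186, 181 and 185 CPM in WT. That of Cdk19 had 178 ± 9.95 CPM in KO against 171 ± 15.9 CPM in WT (SD, n = 5). Among exon peaks, exon 4 of 6 of Mnt, a transcriptional antagonist of MYC, had 162 CPM in KO against 177 CPM in WT. Exon 9 of 11 of Ssc4d, a scavenger-receptor gene, had 160 CPM in KO against 180 CPM in WT. Exon 6 of 15 of Phf19, a Polycomb subunit, had 150 CPM in KO against 166 CPM in WT. An exon peak nearest to Mirlet7a-1, which has no symbol in the deposited annotation, was higher than these, with 187 CPM in KO against 193 CPM in WT, and was chosen after its values were seen. The highest 3' UTR peaks lay in Pdcd1lg2, the PD-1 ligand PD-L2 (88.4 CPM in KO against 93.1 CPM in WT), near Dctpp1 and within Zfp771 (85.9 CPM in KO against 90.9 CPM in WT), and near Ier2 and within Cacna1a (86.1 CPM in KO against 88.2 CPM in WT). In the 8 peaks named here other than that of Mirlet7a-1, KO and WT libraries overlapped and edgeR's adjusted p was between 0.444 and 0.989.

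Of the 2150 peaks, 2121 held enough counts to test by edgeR's quasi-likelihood test, and 29 (20 exon, 3 5' UTR and 6 3' UTR peaks) did not. At a Benjamini-Hochberg adjusted p under 0.05 over all 34695 tested nuclear peaks, 45 were higher in KO (2.12%) and 29 lower (1.37%). The shares over all tested peaks were 2.96 percent higher and 0.928 percent lower, 3.89 percent in all. The differences between these shares were not tested. Of the 45 rises 18 reached 2-fold, and of the 29 falls 4. All nuclear peaks showed the same pattern, with 381 of 1027 rises and 34 of 322 falls at 2-fold. The libraries of both groups were fully apart in 35 of the called rises and in 11 of the called falls. Over all nuclear peaks this was so in 715 of 1027 called rises and 160 of 322 called falls. Among all tested peaks, called or not, 2.78 percent were separated with KO higher and 1.19 percent with KO lower. Over all tested members, called or not, the groups did not overlap in 87 (4.10%), against 3.97 percent of all tested peaks. In bulk libraries a change in some of the cells and a smaller change in all of them cannot be told apart. The median log2 fold change of all tested members was -0.01, as it was for all tested peaks. Of the 74 calls, 33 held in every alternative that tested the peak, 29 of the 45 rises and 4 of the 29 falls. DESeq2 called those 33 as well, 29 higher and 4 lower, and no other of the 74. It called 1.52 percent of all tested peaks higher and 0.167 percent lower, so that on its calls the shares of members lie near the background in both directions. By limma-voom, which called 2.88 percent of all tested peaks higher and 0.781 percent lower, 61 of the 74 were kept.

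**Figure D1:**
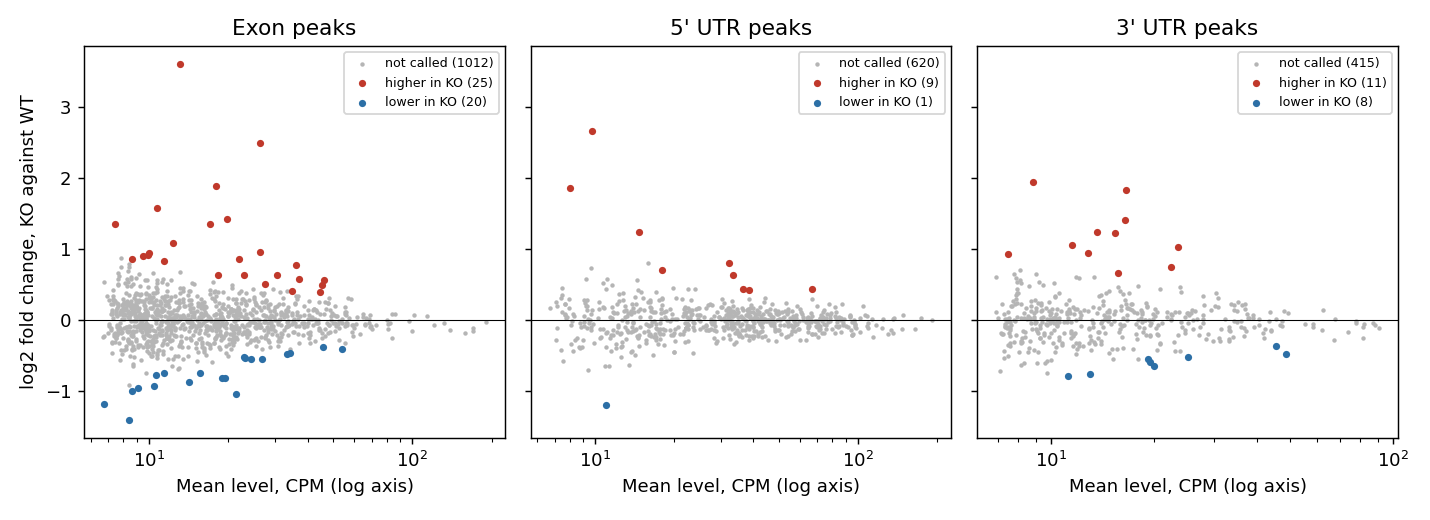
Log2 fold change of KO against WT (y axis) against the mean level of KO and WT in CPM (log x axis) for each tested exon, 5' UTR and 3' UTR peak; red and blue points are peaks called higher and lower in KO. The largest rises lie at levels under about 30 CPM, and the 5' UTR panel holds 9 rises and 1 fall.

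Exon peaks had 25 rises and 20 falls among 1057 tested (4.26% called), 5' UTR peaks 9 and 1 among 630 (1.59%) and 3' UTR peaks 11 and 8 among 434 (4.38%). Peaks in inner exons, which are neither first nor last in their transcript, made up most of the exon calls, with 20 rises and 18 falls among 635 (5.98%). They were also most of the tested exon peaks, 635 of 1057. Of the 20 rises, 4 lay in the immunoglobulin heavy chain locus described below, which the annotation holds as 1 transcript with 1341 exons. First exons had 2 and 1 among 133, last exons 1 and 1 among 147, and exons of single-exon transcripts 2 and 0 among 142. In the 5' UTR class the peaks over a RefSeq start had 2 rises and no fall among 347 (0.576%), those of Satb1 and Ifi47. The other 5' UTR peaks had 7 rises and 1 fall among 283 (2.83%). With the same minimum summed count, 1.63% of promoter peaks were called, 6.65% of intronic and 5.87% of distal intergenic peaks. The shares of 5' UTR peaks over a start and of promoter peaks were both under the 3.89 percent of all peaks. The shares were not tested against each other.

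**Figure D2:**
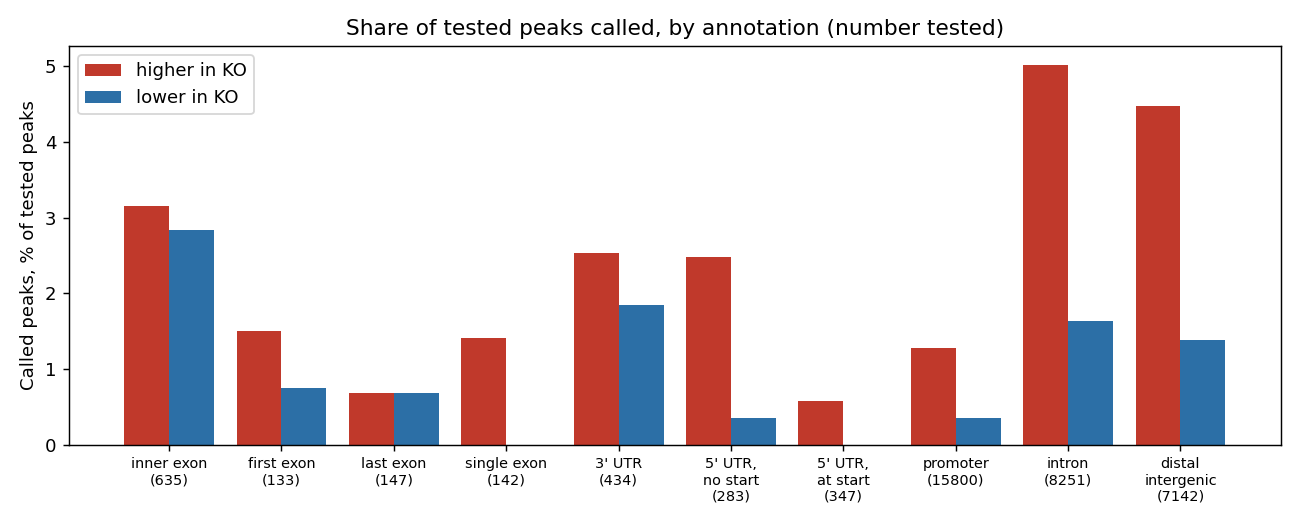
Share of tested peaks called higher (red) and lower (blue) in KO, in percent (y axis, from 0), by annotation class (x axis, number tested in parentheses). Inner exons had 20 rises, 4 of them in the immunoglobulin heavy chain locus, and 18 falls, whereas 5' UTR peaks over a RefSeq start had 2 rises and no fall.

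As whole classes the members showed no detectable difference between the groups. Summed over all exon peaks, KO libraries had 22564 ± 258 CPM and WT libraries 22508 ± 294 CPM (SD, n = 5, two-sided exact permutation p = 0.714). The 5' UTR sums were 24060 ± 493 and 24317 ± 290 CPM (exact permutation p = 0.373), and the 3' UTR sums 8133 ± 113 and 8193 ± 202 CPM (exact permutation p = 0.563). First, inner and last exons gave exact permutation p = 0.603, 0.365 and 0.246. All 6 values were 0.714 after Benjamini-Hochberg adjustment, and in none of the 6 was a difference detectable beyond the spread between libraries. At the threshold of the summed count, exon peaks with 100 counts averaged 7.37 CPM in KO against 6.58 CPM in WT, and those with 99 counts 7.10 and 7.06 CPM. For 5' UTR peaks the values were 7.04 and 6.37 CPM inside and 7.38 and 6.98 CPM outside, and for 3' UTR peaks 6.71 and 7.92 CPM inside and 7.56 and 6.69 CPM outside. Few peaks stand behind these values: 7 exon, 1 5' UTR and 4 3' UTR peaks inside, and 11, 2 and 3 outside.

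The exon peaks with the largest gains lay in genes of quite different function. Exon 3 of 13 of Rexo5, an RNA exonuclease, rose most of all members (chr7:119801018-119801302, 12.2-fold), with 23.5, 30.6, 20.3, 27.0 and 19.3 CPM in KO against 3.31, 0.561, 1.06, 5.08 and 0.685 CPM in WT. Next was a peak over exon 1 of 3 of a transcript at Gm33332, a predicted gene inside Il20ra, which encodes a receptor chain for the cytokine IL-20 (chr10:19718668-19719034). It had 40.6, 33.8, 54.2, 55.1 and 43.1 CPM in KO against 1.10, 14.6, 7.96, 6.53 and 6.17 CPM in WT. Every KO library lay above every WT library, although Sample_2274_WT, at 14.6 CPM, stood above the other WT libraries. The change was 5.59-fold (log2 2.48 ± 0.19 SE, edgeR adjusted p = 2.96e-18). The Gm33332 start shown above is inside this peak. A peak over exon 2 of 4 of a transcript at Art2a, a cell-surface ADP-ribosyltransferase of T cells (chr7:101555539-101555913), had 29.2, 22.2, 33.9, 35.7 and 21.8 CPM in KO against 14.3, 8.41, 9.55, 11.6 and 10.96 CPM in WT. The groups did not overlap, and the rise was 2.67-fold (log2 1.42 ± 0.19 SE, edgeR adjusted p = 1.02e-08). Exon 6 of 9 of Snupn, the import adaptor snurportin (chr9:56975240-56975438, nearest start Ptpn9), rose 2.54-fold, from WT values of 4.41, 3.93, 5.31, 2.17 and 4.79 CPM to KO values of 7.31, 9.50, 13.5, 10.8 and 12.7 CPM (edgeR adjusted p = 0.000890). This low peak was also separated between the groups.

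In a few exon rises of smaller size, picked after their values were seen, the KO libraries lay close together. The peak over exon 1 of 2 of a transcript at Gm13572, in the span of the bromodomain gene Baz2b (chr2:60037035-60037600), had 29.2, 27.4, 28.8, 27.6 and 27.9 CPM in KO against 18.7, 15.1, 15.9, 16.7 and 12.3 CPM in WT (1.80-fold, edgeR adjusted p = 6.88e-05). Exon 26 of 30 of Itga2, the collagen-binding integrin alpha-2 (chr13:114845751-114846293, nearest start Mocs2), had 56.0, 54.9, 55.9, 53.0 and 55.2 CPM in KO against 41.9, 42.6, 32.9, 33.4 and 35.6 CPM in WT (1.48-fold, adjusted p = 0.000131). Exon 17 of 21 of Reck, a membrane inhibitor of metalloproteinases (chr4:43937067-43937533, nearest start Glipr2), had 45.7 ± 2.32 CPM in KO against 26.7 ± 5.46 CPM in WT (SD, n = 5, 1.70-fold, edgeR adjusted p = 4.60e-06). In these 3 peaks no KO library came down to the highest WT library. Exon 5 of 8 of St6gal1, a sialyltransferase that caps glycans of B and T cells (chr16:23328161-23328544), rose 1.95-fold, from 12.1, 21.3, 16.4, 22.5 and 19.9 CPM in WT to 32.5, 31.7, 25.4, 41.6 and 41.1 CPM in KO (edgeR adjusted p = 1.02e-06). Exon 7 of 15 of Sppl2a, an intramembrane protease, rose 1.55-fold and exon 3 of 4 of the predicted gene Gm33104 1.49-fold. A single-exon transcript at Gm1604a, near Tagap, a GTPase-activating protein induced by T cell activation, rose 2.12-fold (chr17:7884605-7884883), with 8.44 CPM in Sample_2269_KO inside the WT range of 5.31 to 11.02 CPM. The Rexo5, Gm33332, Art2a, Snupn, Gm13572, Itga2, Reck, St6gal1, Sppl2a, Gm33104 and Gm1604a calls held in every alternative that tested them.

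**Figure D3:**
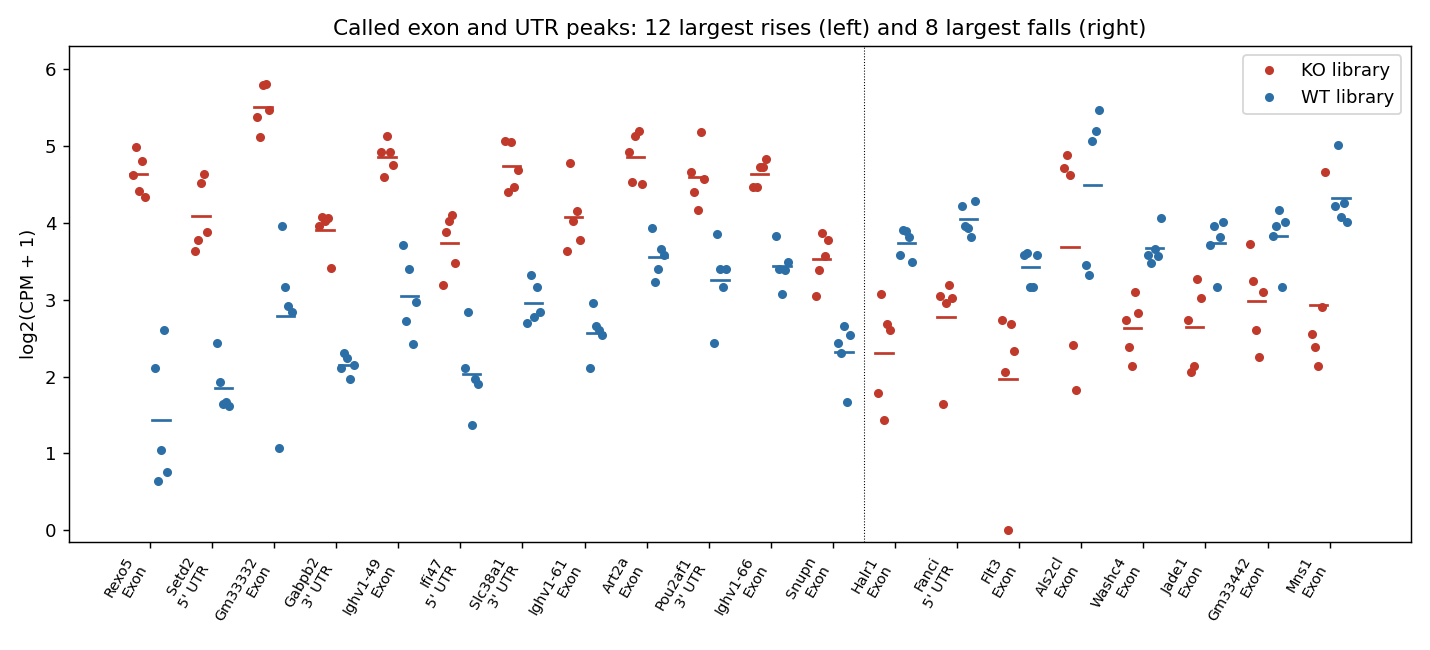
Level of the 12 called peaks with the largest rises (left of the dotted line) and the 8 with the largest falls (right) in each library, as log2(CPM + 1) on the y axis, with the gene that spans the peak and its class on the x axis; points are libraries, red for KO and blue for WT, and bars are group means. KO and WT points are apart in Setd2, Gabpb2 and Slc38a1, and intermixed in Als2cl, where 3 libraries of each group are high and 2 are low.

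Other exon rises were called by edgeR but not by DESeq2. Exon 15 of 16 of Dus2, a tRNA-modifying enzyme (nearest start Nfatc3), had 13.2 ± 1.31 CPM in KO against 6.80 ± 2.46 CPM in WT, and the call ended without Sample_2271_KO or Sample_2275_WT (adjusted p over all its lost settings 0.0583 to 0.125). Exon 9 of 25 of C2cd5, which acts in transport of glucose transporter vesicles, had 12.8 ± 3.89 CPM in KO against 6.96 ± 1.39 CPM in WT, and the call ended without Sample_2269_KO, Sample_2272_KO, Sample_2274_WT or Sample_2275_WT (0.0643 to 0.180). A peak over exon 2 of 3 of a transcript at Chrna9, a nicotinic receptor subunit, had 12.5 ± 2.55 CPM in KO against 6.43 ± 2.45 CPM in WT. Leaving out any 1 of Sample_2269_KO, Sample_2272_KO, Sample_2274_WT and Sample_2277_WT ended its call (0.0608 to 0.192). Exon 2 of 14 of Adgrl2, an adhesion G protein-coupled receptor, had 53.4 ± 7.31 CPM in KO against 37.6 ± 4.11 CPM in WT and lost its call with DESeq2 only (0.0683). Exon 6 of 15 of Pde4b, a phosphodiesterase that degrades cyclic AMP, had 14.4 ± 5.22 CPM in KO against 8.38 ± 2.19 CPM in WT, and the call ended without Sample_2270_KO, Sample_2272_KO, Sample_2274_WT or Sample_2275_WT (0.0649 to 0.397). The remaining rises of this kind, of Gna12, Mical2, Cyp4f17 and 4930465M20Rik, had log2 fold changes of 0.85, 0.63, 0.51 and 0.41. The Gna12 call ended without Sample_2270_KO, Sample_2271_KO, Sample_2272_KO, Sample_2273_WT, Sample_2274_WT, Sample_2275_WT, Sample_2276_WT or Sample_2277_WT (0.0507 to 0.437), and the Mical2 call without Sample_2271_KO, Sample_2272_KO, Sample_2275_WT or Sample_2277_WT (0.0727 to 0.387). The Cyp4f17 call ended without Sample_2268_KO, Sample_2271_KO or Sample_2273_WT (0.0568 to 0.193), and the 4930465M20Rik call without Sample_2268_KO, Sample_2269_KO, Sample_2270_KO, Sample_2272_KO, Sample_2273_WT, Sample_2275_WT, Sample_2276_WT or Sample_2277_WT (0.0523 to 0.341). The Gna12 and Pde4b calls also ended with limma-voom (adjusted p = 0.0966 and 0.0649). In none of these alternatives did the log2 fold change of these peaks turn negative.

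The 9 rises in 5' UTR peaks included 3 of 2-fold or more. The largest lay within Setd2, the histone H3 lysine 36 methyltransferase, and nearest to the start of Nradd (chr9:110593941-110594258). It had 11.4, 12.7, 22.0, 23.8 and 13.7 CPM in KO against 4.41, 2.80, 2.12, 2.17 and 2.06 CPM in WT. The lowest KO library was above the highest WT library, and the rise was 6.32-fold (log2 2.66 ± 0.31 SE, edgeR adjusted p = 1.35e-10). The peak at the start of Ifi47, an interferon-induced GTPase, lies nearest by annotation to Tgtp2, another one (chr11:49076415-49076613). It had 8.12, 13.7, 15.2, 16.2 and 10.1 CPM in KO against 3.31, 6.17, 1.59, 2.90 and 2.74 CPM in WT, again without overlap, and rose 3.62-fold (log2 1.86 ± 0.31 SE, edgeR adjusted p = 5.30e-06). The TATAAA printed above for Ifi47 is inside this peak.

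A pair of adjacent 5' UTR peaks within Chd9, a chromodomain helicase, rose together. The nearest start is that of Rbl2, the retinoblastoma-family protein p130, and 141 bp separate the peaks. The first (chr8:90954828-90955052) had 20.3, 23.2, 22.0, 20 and 19.3 CPM in KO against 4.41, 8.41, 9.02, 8.70 and 10.96 CPM in WT, a 2.36-fold rise without overlap (edgeR adjusted p = 4.83e-06). The second (chr8:90955193-90955525) had 19.5, 26.4, 23.7, 20 and 23.8 CPM in KO against 7.71, 14.6, 13.3, 13.8 and 16.4 CPM in WT, 1.63-fold higher and also without overlap (adjusted p = 0.00693). Its call ended with DESeq2 and without the 3 shallowest libraries (adjusted p 0.0993 and 0.137). The Rbl2 promoter peaks themselves were not called.

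Among kinase and signalling genes, the 5' UTR peak of Camk2d, a calcium- and calmodulin-dependent kinase (chr3:126834562-126835135), had 42.2, 24.3, 40.6, 48.6 and 47.6 CPM in KO against 17.6, 28.0, 23.9, 21.8 and 28.1 CPM in WT. Sample_2269_KO, at 24.3 CPM, lay inside the WT range and the other KO libraries above it (1.75-fold, edgeR adjusted p = 1.20e-05). The peak within Ldlrad4, a negative regulator of TGF-beta signalling (nearest start Mir7219), had 76.3, 68.6, 84.6, 81.6 and 73.5 CPM in KO against 52.9, 60.01, 55.7, 54.4 and 58.2 CPM in WT, 1.35-fold higher without overlap (adjusted p = 0.000820). The peak of Zap70, the kinase that relays the T cell receptor signal (chr1:36766875-36767179), had 54.4, 48.5, 28.8, 40.0 and 40.5 CPM in KO against 22.0, 38.7, 34.5, 20.3 and 37.7 CPM in WT. The Zap70 groups overlapped and the change was 1.35-fold (adjusted p = 0.0479). Its call ended with DESeq2, limma-voom and 5 other settings, and without Sample_2268_KO, Sample_2269_KO, Sample_2271_KO, Sample_2272_KO, Sample_2273_WT, Sample_2275_WT or Sample_2276_WT (adjusted p 0.0516 to 0.352). An intronic peak 123 bp away was called higher too (log2 0.66). The peak within Pced1b (nearest start Amigo2) had 44.9 ± 12.7 CPM in KO against 31.8 ± 2.73 CPM in WT (SD, n = 5). Its call ended with DESeq2 and limma-voom and without Sample_2268_KO, Sample_2270_KO, Sample_2274_WT, Sample_2275_WT or Sample_2277_WT (adjusted p over all its lost settings 0.0600 to 0.288).

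Satb1, the floxed gene, had 4 tested members, of which 1 changed. Its 5' UTR peak (chr17:51826423-51826825) had 43.0, 31.7, 40.6, 45.4 and 43.1 CPM in KO against 26.5, 26.4, 35.6, 18.9 and 24.7 CPM in WT. The groups overlapped only through Sample_2269_KO, at 31.7 CPM, and Sample_2275_WT, at 35.6 CPM (1.55-fold, edgeR adjusted p = 0.000552). The 3' UTR peaks had 26.2 ± 4.02 CPM in KO against 30.5 ± 4.76 CPM in WT and 11.7 ± 1.30 CPM in KO against 10.6 ± 3.44 CPM in WT, and the peak over exon 3 of 11 had 7.20 ± 1.01 CPM in KO against 8.02 ± 2.22 CPM in WT (SD, n = 5). None of these 3 passed edgeR, DESeq2 or limma-voom (edgeR adjusted p = 0.393, 0.935 and 0.858). The sources used here do not say which exons are floxed, and these peaks are therefore no check of the labels. No member was annotated to Il2.

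In 3' UTR peaks the largest rises came as neighbouring pairs. Of a pair within Gabpb2, a subunit of the ETS-family factor GABP (nearest start Sema6c), the first peak (chr3:95184947-95185130) had 14.6, 15.8, 15.2, 15.7 and 9.63 CPM in KO against 3.31, 3.93, 3.71, 2.90 and 3.42 CPM in WT. Sample_2272_KO stood below the other KO libraries but above all WT libraries, and the peak rose 3.82-fold (log2 1.93 ± 0.29 SE, edgeR adjusted p = 2.75e-07). The second, 93 bp away (chr3:95185223-95185491), had 18.9 ± 4.79 CPM in KO against 12.4 ± 3.56 CPM in WT (SD, n = 5, 1.59-fold, adjusted p = 0.0328). Its groups overlapped, and its call ended with DESeq2, without the 3 shallowest libraries and without Sample_2269_KO, Sample_2271_KO, Sample_2272_KO, Sample_2274_WT, Sample_2275_WT or Sample_2277_WT (adjusted p 0.0738 to 0.307). The other pair lies in Slc38a1, a glutamine transporter, 81 bp apart. The first of these (chr15:96583338-96583651) had 32.5, 20.1, 32.2, 21.1 and 24.8 CPM in KO against 5.51, 8.97, 5.84, 7.97 and 6.17 CPM in WT, 3.56-fold higher (log2 1.83 ± 0.21 SE, edgeR adjusted p = 1.09e-10). The second (chr15:96583732-96583925) had 13.8, 21.1, 13.5, 16.2 and 12.7 CPM in KO against 8.82, 6.73, 6.37, 9.43 and 6.17 CPM in WT, 2.07-fold higher (adjusted p = 0.00123). Neither Slc38a1 peak overlapped between groups, and a promoter peak of Slc38a1 was also called higher (log2 1.50).

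The other 3' UTR rises were single peaks. That of Pou2af1, a coactivator of octamer-binding factors best known in B cells (chr9:51238865-51239264), had 24.4, 20.1, 16.9, 35.1 and 22.8 CPM in KO against 4.41, 13.5, 9.55, 7.97 and 9.59 CPM in WT, 2.66-fold higher without overlap (log2 1.41 ± 0.20 SE, edgeR adjusted p = 1.24e-07). Of the B cell markers, 2 members were tested, of which edgeR, limma-voom and DESeq2 called 0 and 0 had an unadjusted edgeR p under 0.05, and all their peaks summed to 73.9 to 91.4 CPM in KO and 71.1 to 101 CPM in WT. Any part of B cells in the Pou2af1 rise was not tested. Hmbox1, a homeobox protein of telomeres (chr14:64884853-64885223), had 24.4, 32.7, 35.5, 34.1 and 30.9 CPM in KO against 16.5, 15.1, 14.9, 15.95 and 14.4 CPM in WT, 2.04-fold higher (edgeR adjusted p = 5.99e-07). Its WT libraries lay within a narrow band that no KO library reached. Zdhhc20, a palmitoyltransferase, rose 2.35-fold (21.2 CPM in KO against 9.42 CPM in WT), and a peak within the phospholipid flippase gene Atp8b1 (nearest start Nars) rose 2.35-fold (19.5 CPM in KO against 7.83 CPM in WT). A peak within Raph1, the actin regulator lamellipodin (nearest start Abi2), rose 1.92-fold and that of Commd8 1.68-fold. All 6 of these calls held in every alternative that tested them. The peak of Mbd2, which binds methylated CpG, had 9.82 ± 2.80 CPM in KO against 5.17 ± 2.01 CPM in WT and lost its call with DESeq2, limma-voom and 9 further settings, among them without Sample_2268_KO, Sample_2270_KO, Sample_2271_KO, Sample_2272_KO, Sample_2273_WT, Sample_2274_WT, Sample_2275_WT or Sample_2277_WT (adjusted p 0.0540 to 0.328).

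The falls were smaller, and only 4 of the 29 held in every alternative. The largest was over exon 3 of 4 of Halr1, a noncoding RNA gene beside the Hoxa cluster (chr6:52111929-52112115). It had 2.44, 7.39, 1.69, 5.41 and 5.07 CPM in KO against 11.02, 14.0, 13.8, 13.1 and 10.3 CPM in WT, with every KO library below every WT library (log2 -1.41 ± 0.28 SE, edgeR adjusted p = 0.000168). A 3' UTR peak annotated to Halr1, 3780 bp away (chr6:52115895-52116155), had 13.8, 9.50, 3.39, 6.49 and 11.7 CPM in KO against 24.2, 15.1, 15.4, 17.4 and 13.0 CPM in WT. There the groups overlapped (log2 -0.77 ± 0.22 SE, adjusted p = 0.0285), and the call ended with DESeq2, without the 3 shallowest libraries, with libraries merged, and without Sample_2270_KO, Sample_2271_KO, Sample_2273_WT or Sample_2276_WT (adjusted p 0.0539 to 0.259). The other falls that held were exon 4 of 10 of Lipa, exon 38 of 46 of Ttc3 and the 5' UTR peak of Fanci. Lipa, the lysosomal acid lipase (chr19:34510750-34511174), had 13.0, 11.6, 6.77, 18.4 and 14.2 CPM in KO against 27.6, 24.1, 27.1, 24.7 and 21.9 CPM in WT (log2 -0.82 ± 0.17 SE, edgeR adjusted p = 0.000687). Ttc3, a ubiquitin ligase (chr16:94454168-94454553, nearest start Vps26c), had 17.9, 8.44, 15.2, 13.5 and 15.2 CPM in KO against 20.9, 25.8, 25.5, 23.2 and 28.1 CPM in WT (log2 -0.81 ± 0.17 SE, adjusted p = 0.000646). Fanci, of the Fanconi anaemia DNA repair pathway (chr7:79401605-79401885), had 6.28 ± 2.38 CPM in KO against 15.6 ± 2.33 CPM in WT (SD, n = 5, log2 -1.19 ± 0.24 SE). No KO library reached the WT range in any of these 3.

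Further exon falls rested on the test or on single libraries. Exon 13 of 24 of Flt3, a receptor tyrosine kinase of blood progenitors (nearest start Urad), had 5.68, 3.17, 0, 5.41 and 4.05 CPM in KO against 11.02, 11.2, 7.96, 7.97 and 10.96 CPM in WT, separated but low. The Flt3 call ended with DESeq2 and without the 3 shallowest libraries (adjusted p 0.0867 and 0.122). Exon 31 of 33 of Washc4, of the endosomal WASH complex, had 5.39 ± 1.63 CPM in KO against 11.9 ± 2.24 CPM in WT and lost its call without Sample_2277_WT (adjusted p over all its lost settings 0.0597 to 0.113). Exon 9 of 11 of Jade1, of a histone acetyltransferase complex, had 5.60 ± 2.36 CPM in KO against 12.6 ± 2.83 CPM in WT. It lost its call with limma-voom and without Sample_2269_KO, Sample_2274_WT or Sample_2277_WT (0.0531 to 0.144). Exon 3 of 11 of Lgals9, the lectin galectin-9, had 11.3 ± 2.17 CPM in KO against 19.98 ± 3.13 CPM in WT and lost it without Sample_2274_WT (0.0595 to 0.105). Exon 6 of 11 of Pmel and exon 9 of 11 of Gpnmb, related transmembrane glycoproteins of melanosomes, had 46.7 CPM in KO against 61.6 CPM in WT, and 19.6 CPM in KO against 29.1 CPM in WT. The Pmel call ended with DESeq2 only (adjusted p = 0.145) and the Gpnmb call with DESeq2 and without Sample_2268_KO, Sample_2272_KO or Sample_2275_WT (0.0544 to 0.222). The remaining exon falls had log2 fold changes of -0.92 in Lrrk1, where Gm33442 overlaps it, -0.55 in Mcur1, -0.54 in Ldlrad3, -0.52 in Acvrl1, -0.48 in Phospho1, -0.47 in Pigl and -0.38 in P2rx4. DESeq2 called none of these 7, and limma-voom did not call those in Acvrl1 and P2rx4. The Lrrk1 call ended without Sample_2271_KO or Sample_2275_WT (adjusted p over all its lost settings 0.0840 to 0.191), Mcur1 without Sample_2272_KO (0.0993 to 0.155), Ldlrad3 without Sample_2269_KO, Sample_2272_KO or Sample_2275_WT (0.0672 to 0.262) and Pigl without Sample_2268_KO or Sample_2272_KO (0.0578 to 0.165). Acvrl1 lost its call without Sample_2269_KO, Sample_2272_KO, Sample_2274_WT, Sample_2275_WT or Sample_2276_WT (0.0504 to 0.411), Phospho1 without Sample_2268_KO (0.0683 to 0.213), and P2rx4 without Sample_2269_KO, Sample_2272_KO, Sample_2274_WT or Sample_2275_WT (0.0546 to 0.505). The annotation gives Phospho1 as the host of its peak and Gngt2 as the nearest start, while the RefSeq gene that spans the peak is Abi3.

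In 2 of the called exon falls the libraries of each group did not stand together. Exon 23 of 27 of Als2cl (chr9:110896633-110897008), had 25.2, 28.5, 23.7, 4.32 and 2.53 CPM in KO against 9.92, 8.97, 32.4, 35.5 and 43.2 CPM in WT. In each group 3 libraries were above 20 CPM and 2 below 10 CPM, and edgeR gave log2 -1.04 ± 0.28 SE (adjusted p = 0.0134). The Als2cl call ended with DESeq2 and without Sample_2271_KO, Sample_2272_KO or Sample_2277_WT (adjusted p 0.145 to 1.00), and its log2 fold change ran from -1.74 to -0.62 over the alternatives. Exon 7 of 10 of Mns1, a protein of cilia and sperm flagella (chr9:72449516-72449824), had 4.87, 4.22, 3.39, 6.49 and 24.3 CPM in KO against 17.6, 31.4, 15.9, 18.1 and 15.1 CPM in WT. Sample_2272_KO was above 4 of the 5 WT libraries, and Sample_2274_WT stood above all others (log2 -0.87 ± 0.25 SE, edgeR adjusted p = 0.0261). Without one of Sample_2268_KO, Sample_2269_KO, Sample_2270_KO, Sample_2271_KO or Sample_2274_WT the Mns1 call ended (adjusted p over all its lost settings 0.0682 to 0.680), and the log2 fold change ran from -1.93 to -0.59.

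None of the 8 falls in 3' UTR peaks held in every alternative, and DESeq2 called none of them; 1 of the 8 was separated between the groups. That peak, of Dnajb1, an HSP40 cochaperone (chr8:83612066-83612270), had 14.6, 9.50, 20.3, 13.5 and 19.8 CPM in KO against 23.1, 26.4, 24.4, 21.0 and 26.7 CPM in WT (log2 -0.65 ± 0.17 SE, edgeR adjusted p = 0.0106). Its call ended with DESeq2 and without Sample_2269_KO or Sample_2271_KO (adjusted p 0.0525 to 0.144). Peaks of Ostm1, of the lysosomal chloride transporter (41.5 CPM in KO against 55.9 CPM in WT), within Cacnb1, a calcium channel subunit (15.5 CPM in KO against 23.5 CPM in WT), and of Thap12 (7.92 CPM in KO against 14.5 CPM in WT) also fell. So did peaks within Slc37a2 (16.1 CPM in KO against 22.4 CPM in WT), Dcaf7 (20.7 CPM in KO against 29.6 CPM in WT) and Enpp1 (40.3 CPM in KO against 50.4 CPM in WT). The Thap12 and Dcaf7 falls were not called by limma-voom. Ostm1 lost its call without Sample_2274_WT (adjusted p over all its lost settings 0.0725 to 0.127), Cacnb1 without Sample_2268_KO, Sample_2269_KO, Sample_2271_KO, Sample_2274_WT, Sample_2275_WT or Sample_2277_WT (0.0502 to 0.242) and Thap12 without Sample_2268_KO, Sample_2269_KO, Sample_2270_KO, Sample_2271_KO, Sample_2274_WT, Sample_2275_WT or Sample_2276_WT (0.0597 to 0.267). Slc37a2 lost it without Sample_2268_KO, Sample_2269_KO, Sample_2272_KO, Sample_2274_WT, Sample_2275_WT or Sample_2277_WT (0.0513 to 0.421). Dcaf7 lost it without Sample_2268_KO, Sample_2269_KO, Sample_2272_KO, Sample_2273_WT, Sample_2274_WT, Sample_2275_WT or Sample_2277_WT (0.0533 to 0.330). Enpp1 lost it without Sample_2268_KO, Sample_2269_KO, Sample_2271_KO, Sample_2272_KO, Sample_2273_WT, Sample_2274_WT, Sample_2276_WT or Sample_2277_WT (0.0515 to 0.409).

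Each of the 5 gene lists had at most 1 called member. The lists are small, so that 1 call is already a larger share than the 3.89 percent of all tested peaks. Of 19 tested members at T cell receptor and costimulation genes 1 was called, Zap70. At IL-2 and common gamma chain cytokine signalling genes 0 of 7 were called by edgeR, DESeq2 or limma-voom, and 1 had an unadjusted edgeR p under 0.05. Of 10 tested members at T helper and regulatory genes 1 was called lower, over exon 8 of 9 of Irf4, a transcription factor of activated lymphocytes. Irf4 had 8.12, 7.39, 3.39, 10.3 and 7.60 CPM in KO against 17.6, 11.8, 16.4, 9.43 and 14.4 CPM in WT (log2 -0.77 ± 0.24 SE, edgeR adjusted p = 0.0457). At naive and quiescence genes 1 of 16 was called (Satb1), and at chromatin organisers and SATB1 partners 1 of 8. The latter lay over exon 16 of 38 of Chd7, a chromatin remodeller, with 7.31, 5.28, 11.8, 8.65 and 9.63 CPM in KO against 14.3, 12.9, 16.4, 16.7 and 10.96 CPM in WT (log2 -0.75 ± 0.23 SE, edgeR adjusted p = 0.0424). Both groups of libraries overlapped in Irf4 and in Chd7, and the Irf4 call ended with DESeq2 and limma-voom and without Sample_2268_KO, Sample_2269_KO, Sample_2270_KO, Sample_2272_KO, Sample_2273_WT, Sample_2275_WT or Sample_2277_WT (adjusted p 0.0750 to 0.269). The Chd7 call ended with DESeq2 and limma-voom and without Sample_2268_KO, Sample_2269_KO, Sample_2271_KO, Sample_2272_KO, Sample_2273_WT, Sample_2275_WT or Sample_2276_WT (adjusted p 0.0523 to 0.294). The median log2 fold changes of these 5 lists were -0.02, -0.22, -0.04, 0.00 and -0.18, beside -0.01 over all tested peaks.

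For most called members the promoter of the nearest gene was not called with them. A promoter peak of that gene was tested for 51 of the 74. At least 1 was called in the same direction for 3, both Slc38a1 peaks, which share their called promoter peak, and Satb1. Of promoter peaks with the same minimum, 1.63% were called in either direction. That is a share of single peaks, whereas a gene can have several. For 36 of the 74 another tested peak lay within 5000 bp. It was called in the same direction for 10 (27.8%), and in the opposite direction for none. Among tested members that were not called, 1111 had such a neighbour, and for 63 (5.67%) it was called in either direction. These shares were not tested against each other. Of the 10 called members, 8 are the 4 pairs at Slc38a1, Gabpb2, Chd9 and Halr1, which count each other, and the other 2 are Zap70 and Gm33104, each beside a called intronic peak. The nearest start was also not always the gene that holds the exon. Of 1077 exon peaks the host was the nearest-start gene for 413 and another gene for 350, and 314 lay on transcripts with no gene number in the annotation.

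A first group of exon peaks with a shared direction lay in the immunoglobulin heavy chain locus, Igh, on chromosome 12, whose V segments are joined to D and J segments in B cells. These peaks were grouped after their values were seen, so nothing was tested on the group. The annotation holds the locus as 1 transcript with 1341 exons, and 31 members were exons of it, of which 28 overlapped a segment of the Ighv1 family. Of 30 tested, 26 had a log2 fold change above 0, with a median of 0.25, and 4 were called higher and none lower. Over all tested peaks 48.8% were above 0 and 2.96 percent were called higher. The peak of Ighv1-49 (chr12:115055110-115055513) had 29.2, 23.2, 33.9, 29.2 and 25.8 CPM in KO against 12.1, 5.61, 9.55, 4.35 and 6.85 CPM in WT (log2 1.89 ± 0.20 SE, edgeR adjusted p = 7.17e-12). Ighv1-61 (chr12:115359083-115359348) had 11.4, 26.4, 15.2, 16.8 and 12.7 CPM in KO against 3.31, 6.73, 5.31, 5.08 and 4.79 CPM in WT (log2 1.57 ± 0.26 SE). Ighv1-66 (chr12:115593010-115593339) had 24.1 ± 2.83 CPM in KO against 9.98 ± 2.0996 CPM in WT, and Ighv1-58 (chr12:115312013-115312364) 28.0 ± 1.98 CPM in KO against 17.8 ± 2.46 CPM in WT (SD, n = 5). The groups were apart in all 4, and the Ighv1-58 call ended with DESeq2 (adjusted p = 0.105).

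Summed over the 31 Igh exon peaks, the KO libraries had 508, 493, 543, 566 and 543 CPM and the WT libraries 384, 440, 405, 438 and 401 CPM. The lowest KO library was above the highest WT library, at a ratio of 1.28. Without the 4 called peaks the sums were 434 ± 29.2 and 373 ± 27.4 CPM (SD, n = 5), a ratio of 1.16, and the groups overlapped, with a lowest KO sum of 395 CPM and a highest WT sum of 403 CPM. The log2 difference of the full sum was 0.36, and 0.36 also without the 3 shallowest libraries. Outside exons the same stretch held 48 peaks, of which 39 had too few counts to test. Of the 9 tested, 9 were above 0 and 2 were called higher. A low peak can pass the count filter through the group where it is high, so these counts describe the tested peaks only. Of the 12 B cell markers, 1 had a promoter peak, Cr2, at 9.96 CPM in KO against 6.53 CPM in WT, which was not called. Only 2 of the 14 peaks of these genes held enough counts to test. The part of B cells in the Igh values was not tested. V segments of a family are similar in sequence, so some reads may have been split between them or placed on the wrong one. Without the Igh exons, 41 exon and UTR peaks were higher and 29 lower.

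**Figure D4:**
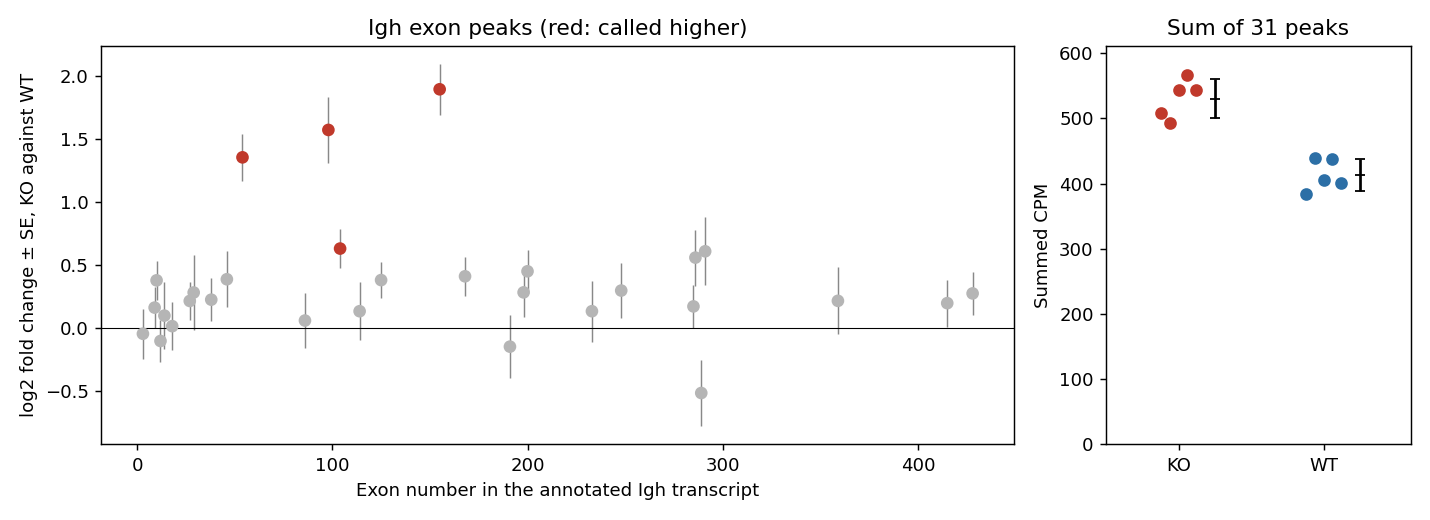
Left, log2 fold change of KO against WT with its SE for each tested Igh exon peak (y axis) by exon number in the annotated transcript (x axis), red where called higher. Right, summed CPM of the 31 peaks in each KO (red) and WT (blue) library, with mean and SD beside the points; all 5 KO libraries lie above all 5 WT libraries.

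The second such group was the tRNA genes, which RNA polymerase III reads from promoters inside the gene. In total, 91 exon members overlapped a RefSeq tRNA gene, and all were exons of single-exon transcripts. This group too was formed after values were seen and was not tested. Of the 91 peaks 81 had a log2 fold change above 0, the median was 0.18 and the range -0.30 to 0.65, where 48.8% of all tested peaks were above 0. A single one was called, over n-TPagg4 and n-TTtgt3 (chr14:51064833-51065292), with 41.4, 58.0, 71.1, 44.9 and 44.6 CPM in KO against 39.7, 30.3, 36.1, 40.6 and 41.1 CPM in WT (1.31-fold, edgeR adjusted p = 0.0434). Its call ended with DESeq2, limma-voom and 3 further settings and without Sample_2269_KO, Sample_2270_KO, Sample_2271_KO, Sample_2273_WT, Sample_2274_WT or Sample_2275_WT (adjusted p 0.0517 to 0.446). The peak with the highest level, over n-TDgtc16 and n-TWcca2, had 116 ± 11.2 CPM in KO against 111 ± 9.45 CPM in WT (SD, n = 5), and its groups overlapped.

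Summed over the 91 tRNA gene peaks, the KO libraries had 2397, 2702, 2460, 2143 and 2361 CPM and the WT libraries 2389, 2079, 1992, 2095 and 2125 CPM. The groups overlapped, since Sample_2271_KO and Sample_2272_KO lay below Sample_2273_WT, and the ratio of the means was 1.13. The highest sums of their groups were in shallow libraries, Sample_2269_KO and Sample_2270_KO in KO and Sample_2273_WT in WT. Without these 3 libraries the log2 difference was 0.15 in place of 0.18, and the part of depth in it was not tested. The same libraries had the highest share of mitochondrial counts in their groups, 1.73% and 1.97% in KO and 1.50% in WT, and the part of library quality was not tested either. Of the 51 tested members on other single-exon transcripts 30 were above 0, with a median of 0.03. Among tRNA gene peaks that the annotation places in promoters, 34 of 43 were above 0, with a median of 0.08. Many tRNA genes are near-identical copies, so a read may have been assigned to the wrong one.

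**Figure D5:**
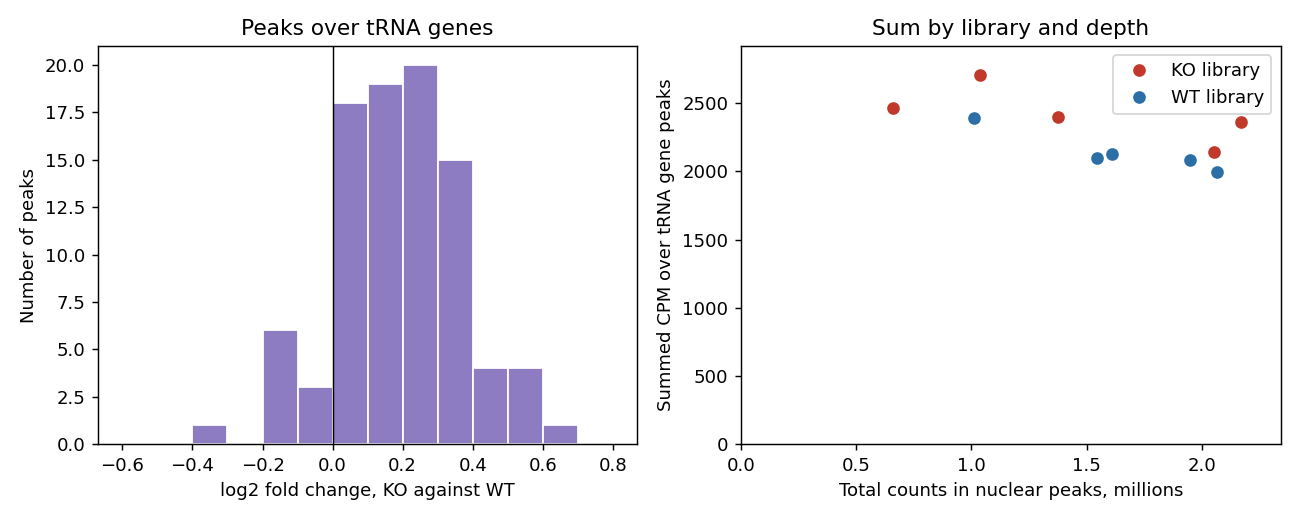
Left, number of tRNA gene peaks (y axis) by log2 fold change of KO against WT (x axis). Right, summed CPM over the 91 peaks (y axis, from 0) against the total count in nuclear peaks (x axis, in units of 1000000 counts) for each KO (red) and WT (blue) library; 81 of 91 peaks lie above 0, and the 3 shallowest libraries have high sums.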

How the data were processed

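ATAC-seq of 10 libraries, 5 labelled KO and 5 WT, gave single reads of 75 bp. The authors deposited whole-number counts per peak, not normalized, for 61581 peaks of 1 common set, and an annotation of 61571 of them; 10 mitochondrial peaks were left out here. Per the submitters' processing notes, reads in mm10 were handled with Bowtie2 2.3.5, Trimmomatic 0.36 and SAMtools 1.9, and MACS2 2.1.2, ChIPseeker 1.18.0, DESeq2 1.22.2, Picard, bcl2fastq 2.20, R 3.5.3 and deepTools 3.5.2 and 3.3.0 are also named, with no role or order. These points are not given in the sources used here, namely any shift of reads to the Tn5 cut, the treatment of duplicates, and pooling before peak calling. A shift would move peak borders by a few bases, and removal of duplicates would cap dense peaks in deep libraries.

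All nuclear peaks were tested together with edgeR 4.0.16 in R 4.3.3 (glmQLFit, glmQLFTest, TMM, filterByExpr by group, no covariate, Benjamini-Hochberg, threshold 0.05). The procedure was run on simulated counts with the same spread setting for every peak and planted changes of 2-fold or more. That run does not cover smaller changes or peaks of uneven spread. CPM uses the TMM-scaled total, and fold changes are fitted values with a small prior count, which lowers the fold of peaks near 0. Class sums were compared by two-sided exact permutation over 252 assignments, whose smallest p is 0.00794. Alternatives were DESeq2 1.42.0, limma-voom (limma 3.58.1), other scaling, filters and count minimums, and libraries left out. Exon hosts were matched by gene number to RefSeq (GRCm38.p6), which named 306 of 307 members without a symbol. For UTR peaks the annotation names no transcript, and the RefSeq gene spanning the peak is given.

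Members and lists were chosen with earlier results of these data known. Named by rule were the called peaks of largest fold change per class with a gene symbol (up to 8, 4 and 5 per direction for exon, 5' UTR and 3' UTR), called list genes, all Satb1 members, the 3 highest peaks per class and genes with 2 or more called members. Other called peaks named were chosen after their values were seen. A peak that the rule named is not reported here.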

Additional observations from a re-analysis of the deposited data

Results flagged for a closer look

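In 120 groups of 5 libraries, formed by the 54 named peaks and the 6 class sums in KO and in WT, 7 had 1 library set apart from the other 4 by Dixon's test (critical value 0.71). Chance flags about 1 in 20 such groups, so this number is near what chance gives. In the Mns1 exon peak, Sample_2272_KO had 24.3 CPM where the other KO libraries had 3.39 to 6.49 CPM, and Sample_2274_WT had 31.4 CPM where the other WT libraries had 15.1 to 18.1 CPM. In the Fanci 5' UTR peak Sample_2269_KO had 2.11 CPM and the other KO libraries 6.77 to 8.11 CPM. In the Chrna9 exon peak Sample_2269_KO had 16.9 CPM against 10.3 to 12.2 CPM, and in the 3' UTR peak near Dctpp1 the same library had 79.2 CPM against 85.9 to 88.5 CPM. In the first Gabpb2 3' UTR peak (nearest start Sema6c) Sample_2272_KO had 9.63 CPM against 14.6 to 15.8 CPM. In the Washc4 exon peak Sample_2277_WT had 15.8 CPM against 10.1 to 11.7 CPM.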

How the results depend on the processing

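Falls depended on the processing more than rises did. Over all nuclear peaks, the main fit called 1027 rises and 322 falls, and DESeq2 called 528 and 58. There were 982 and 245 without the 3 shallowest libraries, and 611 and 189 with a mean count of at least 20. With DESeq2, 29 exon and UTR peaks were higher and 4 lower (exon 14 and 3, 3' UTR 0 lower). With a mean count of at least 20 in the fit, 14 were lower (exon 11, 5' UTR 0, 3' UTR 3) and 6 3' UTR peaks higher. Without the 3 shallowest libraries, 16 were lower (exon 11, 3' UTR 4), and with libraries within sampling noise merged, an alternative chosen after seeing the data, 5 3' UTR peaks. With no filter on low counts, 2 5' UTR peaks were lower. With a summed count of at least 200, 28 were higher (exon 16, 3' UTR 6) and 19 lower (exon 13, 5' UTR 0), where fewer peaks are members. Leaving out 1 library in turn, 19 to 27 were lower (19 without Sample_2268_KO or Sample_2269_KO), 1 to 3 in 5' UTRs (3 without Sample_2272_KO, and 2 without Sample_2268_KO, Sample_2269_KO, Sample_2274_WT or Sample_2275_WT) and 2 to 6 in 3' UTRs (2 to 5 without Sample_2268_KO, Sample_2269_KO, Sample_2271_KO, Sample_2274_WT, Sample_2275_WT, Sample_2276_WT or Sample_2277_WT). The causes of these changes were not tested. The class sums, none past the threshold, changed sign in a few settings: exon sums to a log2 difference of -0.0002 with RLE size factors, -0.0020 without the 3 shallowest libraries and -0.0016 to 0.0095 leaving out 1 library, first exons to 0.0022 as a mean of log2 values, and 3' UTR sums to between -0.0191 and 0.0017. Uncalled peaks near 0 also changed sign: Lrif1 (-0.0134 with no filter, -0.0024 without the 3 libraries, -0.0193 merged, -0.0476 to 0.0355 leaving out 1), Cdk19 (-0.0210 without the 3 libraries, -0.0045 merged, -0.0153 to 0.0570 leaving out 1) and the Satb1 peaks in exon 3 (-0.3150 to 0.0386) and the 3' UTR at 51737029 (-0.0248 to 0.2426). No paired analysis was possible because the libraries carry running numbers of which no number is shared between KO and WT. A median exon peak of 14.6 CPM holds few reads in a library of 660107 counts, which limits the precision of its value there.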
